A study of Mus musculus with 16 samples.

Results

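The effect of a CD70 transgene was examined in the hematopoietic stem cell (HSC) fraction labelled CD34-, as 4 arrays of CD70TG mice against 4 arrays of control mice. These are 8 of the 16 arrays of the series, chosen by their labels for fraction and genotype, and the other 8 hold the same genotypes in the fraction labelled CD34+. CD70TG mice were IFNgamma-/- xCD70TG and control mice were IFNgamma-/-, both on C57Bl/6, so that mice of every group lacked the cytokine interferon gamma and the comparison concerns the transgene in its absence. Each of the 4 independent replicates of a group was a pool of sorted bone marrow cells of 2 mice, whose RNA was amplified in 2 rounds and hybridised to Illumina mouse bead arrays. The design text calls CD34- cells long-term HSC, but the sorting protocol describes a single CD34-Flt3- gate for all samples, so the names CD34- and CD34+ follow the sample labels alone. For the mice the sources used here give no age or sex, and for the transgene no promoter. In the CD70 transgenic line in common use the transgene is expressed by B cells, so that HSC meet the ligand on other cells.

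CD70 is a ligand of the TNF family that activated lymphocytes and dendritic cells display for a limited time. Its receptor CD27 sits on T cells, memory B cells and hematopoietic stem and progenitor cells and signals through TRAF adaptors to NF-kB. Lasting CD70 expression drives T cells to produce interferon gamma, a cytokine known to act on HSC itself. Long-term HSC are mostly quiescent cells, held in G0 by cell cycle inhibitors, and are marked by a characteristic set of transcripts that fade as cells enter cycle and take up a myeloid or lymphoid fate.

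Levels are the deposited values, treated as log2, and the brightest probe stood for each gene, which gave 18312 features, 16593 of them named. A difference is CD70TG minus control ± SE of a limma fit over all 16 arrays, with n = 4 arrays a group, and a gene was called at an adjusted p (Benjamini-Hochberg over all features) under 0.05. Values near background are compressed, so that differences of dim genes are understated, and the number of arrays limits the precision, with a median SE of 0.0858 log2 units. In bulk RNA fewer cells of a type and less RNA per cell cannot be told apart. Array medians lay between 6.427 and 6.531, between 50.3% and 57.5% of the probes of an array lay above its background, and replicate arrays correlated at r = 0.986 to 0.996 across probes.

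CD70TG replicate 2 and control replicate 3 stood apart from the other arrays of their groups. On the first principal component of the 8 arrays, with 61.4% of the variance, the CD70TG arrays lay between 8.78 and 34.0 with replicate 2 lowest, and the control arrays between -28.5 and -14.1 with replicate 3 highest. A second measure asked how well separate probes of a gene matched, using 1343 genes that had 2 bright probes each. Their probe-to-probe differences varied over the arrays mainly along 1 axis, with 49.3% of the variance. Positions of arrays on it are called the probe discordance index, in SD units over all 16 arrays, and its sign is arbitrary. It averaged 0.717 ± 0.620 in CD70TG arrays, with replicate 2 lowest at -0.161, and -1.195 ± 0.410 in control arrays (SD, n = 4 each), with replicate 3 highest at -0.609. The difference of 1.912 had an exact two-sided permutation p = 0.0286, the lowest possible with 4 arrays a group. Because the index moves with genotype, results for the main groups of genes are repeated below after adding the index to the model. They are given again without both arrays that stood apart, where 1805 of all 18312 features were called higher and 1468 lower. The index ranges of the genotypes do not overlap in CD34- arrays, so that the model separates index and genotype there with low precision. The model was fitted on all 16 arrays, with 1 slope of the index for both fractions. In the CD34+ fraction control replicate 4, at 0.684, lay inside the CD70TG range. Whether a call lost with the index reflects this loss of precision was not tested. Counts with the index are read against the smaller shares that it calls of all features, given below.

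Transcripts of the sorted antigens, of the transgene and of its receptor were read as a check of the labels. Cd34, the antigen that names the fraction, was read above background on all 8 arrays, at 9.35, 9.69, 9.46 and 9.65 on CD70TG replicates 1 to 4, against 9.77, 9.59, 9.57 and 9.63 on control replicates 1 to 4. Its difference of -0.10 ± 0.13 did not pass (adjusted p = 0.666). In CD34+ arrays its mean was 9.44 in CD70TG and 9.47 in control mice, no higher than in CD34- arrays of the same genotype. The transcript is present in both fractions, so that it does not bear out the labels CD34- and CD34+. Cd27, the receptor of CD70, was bright in both genotypes, at 12.35, 12.60, 12.42 and 12.63 on CD70TG arrays and 12.96, 12.54, 12.94 and 12.94 on control arrays. The groups overlapped through control replicate 2, and the difference was -0.34 ± 0.13 (adjusted p = 0.0687), or -0.44 without that array (adjusted p = 0.019). Cd70 lay below background on all 8 arrays, at 6.09, 5.81, 6.09 and 6.01 on CD70TG arrays, against 6.19, 6.05, 6.21 and 6.12 on control arrays. The sources used here do not say if the probe matches the transgene, so that Cd70 checks no label. Ifng, disrupted in both genotypes, averaged 6.33 on CD70TG arrays and 6.36 on control arrays, near background. Kit and Ly6a, defining transcripts of stem cells, were not analysed here.

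Of all features, 1776 were called higher in CD70TG arrays (9.7%) and 1387 lower (7.57%), and a median difference of -0.01 was found over all features. Rises reached larger sizes than falls, with 384 called features at least 1 log2 unit higher and 111 at least 1 log2 unit lower. After quantile normalization of the deposited values the split turned round, to 1527 higher and 1863 lower. Values of the arrays did not overlap between genotypes for 16.4% of all features, with 9.01% of all features higher and 7.39% lower in CD70TG arrays. After adding the probe discordance index to the model 336 features were called higher (1.83%) and 224 lower (1.22%), and 470 of these 560 (3.06%) had been called in the same direction without it.

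**Figure D1:**
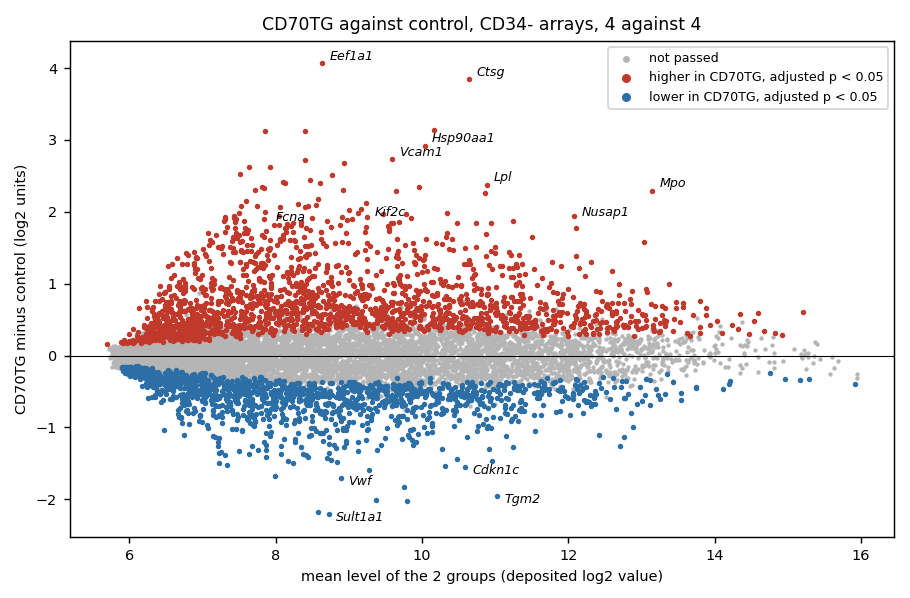
Difference between CD70TG and control arrays (vertical, log2 units) against the mean level of both groups (horizontal, deposited log2 value) for 18312 features, 4 arrays a group. Red points are features called higher in CD70TG arrays (1776) and blue points those called lower (1387). Ctsg, Eef1a1 and Vcam1 lie among the largest rises, and Sult1a1, Vwf and Tgm2 among the largest falls.

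Genes of the myeloid granule programme were higher in CD70TG arrays. Primary granules of neutrophil precursors carry the serine proteases cathepsin G, neutrophil elastase and proteinase 3 and the enzyme myeloperoxidase, whose genes switch on in granulocyte-monocyte progenitors. Of 27 measured genes of this programme 19 were called higher and 0 lower, against 9.7% higher and 7.57% lower of all features. The median difference was 0.69. The count was 15 with the index and 19 without both arrays that stood apart. Ctsg, encoding cathepsin G, had levels of 12.58, 12.99, 12.09 and 12.61 on CD70TG arrays, against 8.30, 8.75, 8.38 and 9.47 on control arrays. All 4 CD70TG arrays lay more than 2 log2 units above the highest control array, replicate 4, and the difference was 3.85 ± 0.24, or 14.4-fold (adjusted p = 2.25e-09). Mpo, encoding myeloperoxidase, was already bright in control arrays, with 14.24, 14.47, 14.13 and 14.33 on CD70TG arrays and 12.14, 11.70, 11.81 and 12.35 on control arrays. The groups were separate, by 2.30 ± 0.14 on the mean (adjusted p = 8.22e-10). Elane, encoding neutrophil elastase, had 10.15, 9.41, 8.97 and 10.22 on CD70TG arrays and 6.67, 7.47, 7.10 and 7.76 on control arrays, a difference of 2.44 ± 0.25 (adjusted p = 6.21e-07). Here the CD70TG arrays spread more widely, with replicates 1 and 4 highest, yet none reached the control range. Prtn3, encoding proteinase 3 and the neighbour of Elane on chromosome 10, had a smaller difference, of 0.79 ± 0.15 (adjusted p = 0.000839), and did not pass with the index (0.75, adjusted p = 0.126). Ms4a3, a membrane protein of granulocyte-monocyte progenitors, rose by 2.62 ± 0.16 (adjusted p = 1.13e-09), and lysozyme Lyz2 rose by 0.99 ± 0.11 (adjusted p = 1.67e-06). With the index the differences were 4.67 for Ctsg, 2.66 for Mpo and 2.29 for Elane, all called. Not passing were P2ry14, a nucleotide sugar receptor, at 0.11, and Ctsc, the protease that activates granule serine proteases, at 0.25.

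The granule genes were set beside their promoters, because PU.1, a transcription factor that drives granule genes, binds purine-rich sites near their starts. In the RefSeq promoter table (GRCm38.p6) the letters GAGGAAGT or GAGGAACT on either strand occurred within 250 bases before the start in 6 of 30 promoters found for 23 of the 27 genes (20%). They occurred in 3.69% of all 32851 promoters of that table. Of the 6 genes holding them 4 were called higher and 2 were not, a share similar to the 19 of all 27 genes. The 120 bases before the start of Elane (chr10:79886192-79886311, plus strand, GRCm38.p6) and of Prtn3 (chr10:79879547-79879666, plus strand) are shown, 5′ to 3′, because both neighbouring protease genes hold the motif at a similar distance, 85 and 95 bases before the start. Capitals mark it.
Elane: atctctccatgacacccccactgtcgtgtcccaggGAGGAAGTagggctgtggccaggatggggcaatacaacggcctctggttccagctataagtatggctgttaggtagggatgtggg
Prtn3: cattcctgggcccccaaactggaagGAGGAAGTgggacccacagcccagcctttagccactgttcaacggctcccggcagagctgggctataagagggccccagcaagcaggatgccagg
A match of letters is a description and not evidence of binding. The gene of PU.1 itself, Spi1, had 7.07, 7.11, 6.99 and 7.38 on CD70TG arrays and 7.28, 6.91, 7.08 and 7.14 on control arrays, which overlap, with a difference of 0.04 ± 0.11 (adjusted p = 0.866).

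Myeloid transcription factors changed less uniformly than granule genes. Of 20 measured, 5 were called higher and 1 lower, against 9.7% higher and 7.57% lower of all features. With the index 2 were higher and 0 lower. Cebpe, which directs the later steps of granulocyte maturation, had 8.08, 8.94, 8.35 and 8.73 on CD70TG arrays and 7.67, 7.74, 7.46 and 7.58 on control arrays. Every CD70TG array was above every control array, by 0.92 ± 0.17 on the mean (adjusted p = 0.000561), and the value with the index was 1.65. Irf8, which directs monocyte and dendritic cell fate, rose by 0.97 ± 0.23 (adjusted p = 0.00453) and by 1.61 with the index. Myb, a factor of immature progenitors, was called higher (2.31 ± 0.46, adjusted p = 0.0013), but its groups overlapped and its value with the index was -0.41 (adjusted p = 0.639). Nfe2, a factor of the erythroid and megakaryocyte lineages, fell by 0.75 log2 units (adjusted p = 0.000298), and with the index its difference was -0.14 (adjusted p = 0.78). Cebpa, the factor that opens the granulocyte programme, lay below background on all 8 arrays.

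Genes of mast cells, basophils and eosinophils were also higher. Of 21 such markers 8 were called higher and 0 lower, against 9.7% higher and 7.57% lower of all features. With the index 6 were higher. Mcpt8, a basophil protease, stood at 8.55, 8.73, 9.06 and 9.48 on CD70TG arrays and 6.36, 6.41, 6.26 and 6.28 on control arrays, where only 1 of 4 arrays read it above background. The difference was 2.63 ± 0.15 (adjusted p = 8.22e-10). Hdc, the enzyme that makes histamine, rose by 1.87 ± 0.23 (adjusted p = 6.19e-06), and Cpa3, a mast cell carboxypeptidase, by 1.56 ± 0.15 (adjusted p = 2.26e-07). Prg2, encoding eosinophil major basic protein, varied within CD70TG arrays, with 7.58, 11.62, 10.10 and 8.13 on CD70TG arrays, against 7.54, 7.44, 6.86 and 7.14 on control arrays. Replicates 2 and 3 carried its difference of 2.11 ± 0.53 (adjusted p = 0.00734), while replicate 1 lay just above the highest control array. Prss34, another basophil protease, was high on CD70TG replicates 3 and 4 alone, with 6.48, 6.52, 8.24 and 8.52 on CD70TG arrays and 6.55, 6.62, 6.51 and 6.42 on control arrays, and did not pass (0.92 ± 0.37, adjusted p = 0.0995) unless CD70TG replicate 1 or 2 was left out (adjusted p = 0.0273 and 0.0204).

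Markers of late neutrophils, made in secondary granules and the cytosol, moved in the same direction with more spread. Of 19 markers 7 were called higher and 0 lower, against 9.7% higher and 7.57% lower of all features. With the index 8 were higher, and without both arrays that stood apart 5. Their summed linear signal was 44867 to 95913 on CD70TG arrays, against 39216 to 54963 on control arrays, ranges that overlap. Chil3, a chitinase-like secreted protein, had 12.39, 13.61, 13.10 and 13.66 on CD70TG arrays and 12.12, 12.09, 11.99 and 11.83 on control arrays, a difference of 1.18 ± 0.22 (adjusted p = 0.000561). S100a8, a calcium-binding subunit of calprotectin, rose by 0.90 ± 0.18 (adjusted p = 0.00118), while its partner S100a9, at 13.46, 14.70, 14.28 and 14.66 on CD70TG arrays and 14.13, 13.93, 13.81 and 13.58 on control arrays, overlapped and did not pass (0.41 ± 0.20, adjusted p = 0.186) unless CD70TG replicate 1 was left out (0.68, adjusted p = 0.00489), and passed with the index (1.26, adjusted p = 0.00361). Camp, an antimicrobial peptide precursor, and Lcn2, an iron-siderophore binding protein, were called higher by 0.90 and 0.89. For each of these genes CD70TG replicate 1 was the lowest CD70TG array. The part of maturing neutrophils in these values was not tested.

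**Figure D2:**
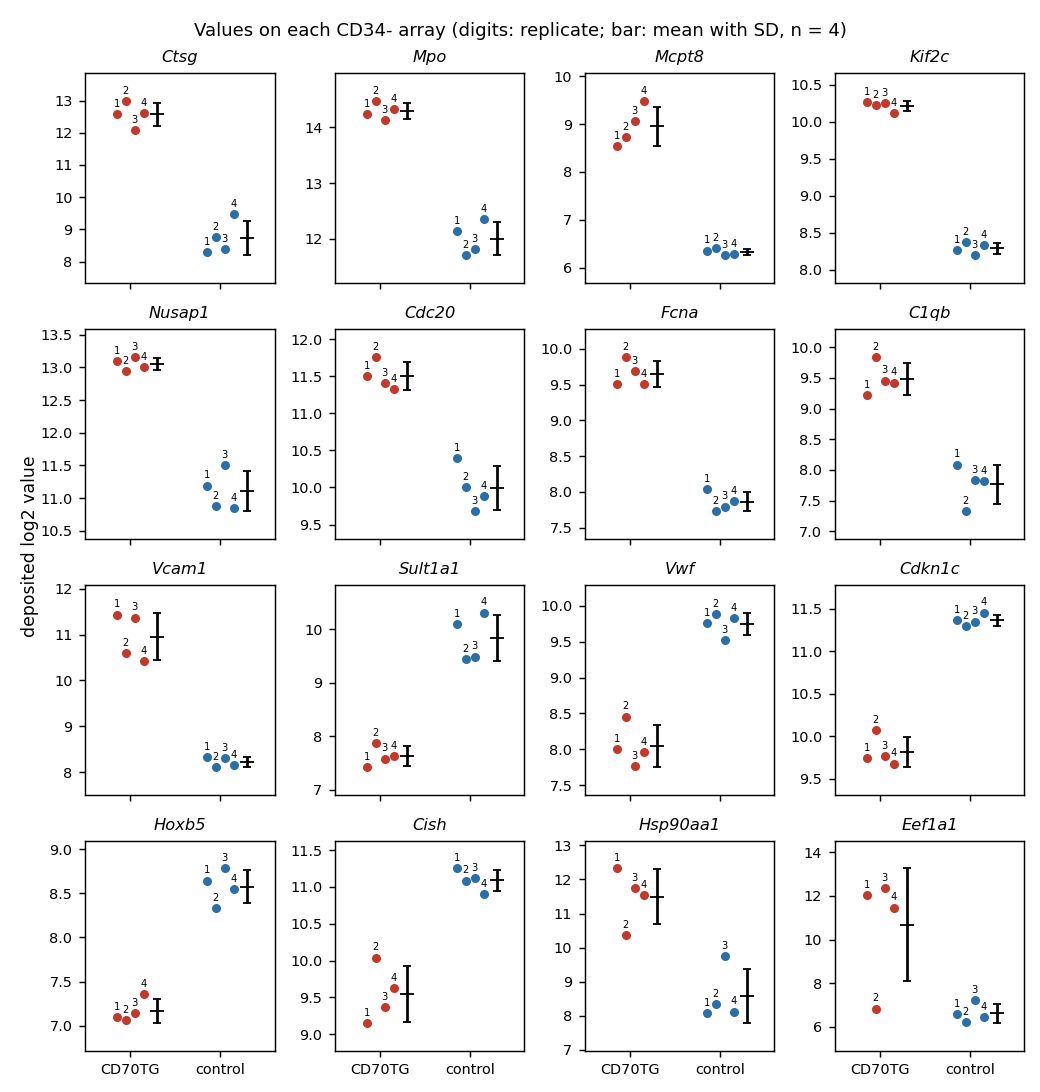
Levels of 16 genes (deposited log2 value) on each of the 4 CD70TG arrays (red, left) and the 4 control arrays (blue, right), with the replicate number at each point and the mean with its SD beside them. For the first 14 genes and Hsp90aa1 the groups do not overlap, whereas for Eef1a1 they do. Hsp90aa1 and Eef1a1 are lowest among CD70TG arrays on replicate 2 and highest among control arrays on replicate 3.

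Cell cycle genes rose together. Of 38 measured genes of G2 and M phase 29 were called higher and 0 lower, against 9.7% higher and 7.57% lower of all features, with a median difference of 1.06. With the index 25 were higher, and without both arrays that stood apart 30. Kif2c, a kinesin that corrects kinetochore attachments, had 10.26, 10.22, 10.26 and 10.12 on CD70TG arrays and 8.27, 8.37, 8.19 and 8.34 on control arrays. The arrays of a group lay close together and the difference was 1.93 ± 0.11 (adjusted p = 8.22e-10). Nusap1, which bundles spindle microtubules and was among the brightest genes of the group, had 13.10, 12.95, 13.16 and 13.01 on CD70TG arrays and 11.19, 10.88, 11.50 and 10.85 on control arrays (1.95 ± 0.14, adjusted p = 6.01e-09). Cdc20, the activator of the anaphase-promoting complex, had 11.50, 11.76, 11.41 and 11.33 on CD70TG arrays and 10.39, 10.01, 9.68 and 9.89 on control arrays (1.51 ± 0.15, adjusted p = 4.18e-07). No control array of these genes reached a CD70TG array. Spc25, a subunit of the NDC80 kinetochore complex, rose by 1.90 ± 0.13, Tpx2, which targets Aurora A to the spindle, by 1.71 ± 0.13, and the spindle checkpoint kinase Ttk by 1.58 ± 0.13. The mitotic kinases Plk1 and Aurka rose by 1.65 and 1.41, and Anln, a scaffold of the cytokinetic ring, by 1.35. Aspm, a spindle pole protein, rose by 2.29 ± 0.16 (adjusted p = 7.92e-09). Of the members that did not pass, Cenpe (-0.10), Ccnb2 (-0.01) and Hmmr (0.05) had probes at or near background in both genotypes. Mki67 and Ccnb1 were not analysed here.

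Promoters of such genes often pair CCAAT boxes, bound by NF-Y, with a cell cycle genes homology region (CHR), through which the DREAM and MuvB complexes repress them in G0 and activate them in mitosis. Within 250 bases before the start, CCAAT on either strand occurred in 25 of 34 promoters found for 32 of the 38 genes (73.5%), and in 33.8% of all promoters of the table. The CHR letters TTTGAA or TTCGAA occurred in 12 of the 34 (35.3%), and in 17.1% of all. Both motifs occurred together in 11 of the 34 (32.4%), and in 6.02% of all. Of the 10 genes holding both, 8 were called higher, a share similar to the 29 of all 38 genes. The other 2 were Ube2c (0.27, adjusted p = 0.0677, and 0.37, adjusted p = 0.00608, without CD70TG replicate 2) and Ccnb2, whose probe lay below background. Here 5 of them are printed as the 120 bases before the start, 5′ to 3′ (GRCm38.p6), chosen after their matches were seen, to show the CHR close to the start and the CCAAT boxes around it. They are Cdc20 (chr4:118437344-118437463, minus strand), Kif22 (chr7:127042421-127042540, minus), Kif11 (chr19:37376262-37376381, plus), Cdk1 (chr10:69352913-69353032, minus) and Top2a (chr11:99024190-99024309, minus). Capitals mark both motifs, read on either strand (ATTGG is CCAAT and TTCAAA is TTTGAA on the opposite strand).
Cdc20: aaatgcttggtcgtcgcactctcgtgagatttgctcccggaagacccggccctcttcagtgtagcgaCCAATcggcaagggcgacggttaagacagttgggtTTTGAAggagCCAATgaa
Kif22: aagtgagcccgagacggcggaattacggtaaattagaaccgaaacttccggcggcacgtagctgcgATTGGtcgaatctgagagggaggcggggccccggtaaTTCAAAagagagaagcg
Kif11: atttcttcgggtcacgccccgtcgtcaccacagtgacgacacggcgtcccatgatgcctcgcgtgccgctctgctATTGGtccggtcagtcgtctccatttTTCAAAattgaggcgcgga
Cdk1: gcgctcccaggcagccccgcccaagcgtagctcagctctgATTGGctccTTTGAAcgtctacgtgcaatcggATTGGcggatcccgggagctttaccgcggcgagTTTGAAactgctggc
Top2a: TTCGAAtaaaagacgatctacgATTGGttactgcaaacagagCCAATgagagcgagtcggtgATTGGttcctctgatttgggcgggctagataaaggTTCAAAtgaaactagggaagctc
The CHR nearest to the start begins 18 bases before it in Cdc20, 17 in Kif22, 19 in Kif11, 15 in Cdk1 and 23 in Top2a. Cdk1, the kinase that drives entry into mitosis, differed by 1.35 ± 0.18 (adjusted p = 1.54e-05), and the spindle motor Kif11 by 1.78 ± 0.16 (adjusted p = 1.71e-07). Kif22, a motor on chromosome arms, differed by 1.09 ± 0.16 (adjusted p = 8.31e-05), and Top2a, the topoisomerase that untangles sister chromatids, by 1.26 ± 0.13 (adjusted p = 1.13e-06). With the index these values were 1.93 for Cdc20, 1.84 for Kif22, 1.41 for Kif11 and 1.09 for Top2a, all called, and 0.96 for Cdk1 (adjusted p = 0.058).

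Genes of S phase rose by smaller amounts. Of 42 measured genes 26 were called higher and 1 lower, against 9.7% higher and 7.57% lower of all features. The median difference was 0.57, and with the index 14 were higher and 0 lower. Rrm1, the large subunit of ribonucleotide reductase, had 11.89, 11.68, 11.79 and 11.73 on CD70TG arrays and 10.67, 10.79, 10.85 and 10.85 on control arrays (0.98 ± 0.11, adjusted p = 1.46e-06). Rrm2, the small subunit, whose level follows S phase, differed by 1.79 ± 0.24 (adjusted p = 2.23e-05) and did not pass with the index (1.0, adjusted p = 0.14). Mcm10, which helps to start replication forks, had 11.68, 12.09, 11.68 and 11.59 on CD70TG arrays and 10.77, 10.69, 10.53 and 10.67 on control arrays (1.10 ± 0.13, adjusted p = 4.83e-06), again without overlap. Cdc6, the loader of the replicative helicase, rose by 0.95 ± 0.12, Clspn, a mediator of the replication checkpoint, by 1.08 ± 0.12, and thymidine kinase Tk1 by 0.96 ± 0.13. Chaf1b, a subunit of the histone chaperone CAF-1, was the single member called lower (-0.62 ± 0.15, adjusted p = 0.00713), and its difference with the index was 0.10.

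E2F factors, which switch on S phase genes at the end of G1, bind sites of the form TTTGGCGC. This sequence, TTTCCCGC, TTTCGCGC or TTTGCCGC occurred within 250 bases before the start in 9 of 43 promoters found for 36 of the 42 genes (20.9%), and in 1.86% of all promoters. Of the 9 genes 6 were called higher and 3 were not, a share similar to the 26 of all 42 genes. Mcm6, a helicase subunit (chr1:128359706-128359825, minus strand, GRCm38.p6), is printed because its promoter holds 3 matches, at 110, 106 and 47 bases before the start, the first 2 overlapping.
Mcm6: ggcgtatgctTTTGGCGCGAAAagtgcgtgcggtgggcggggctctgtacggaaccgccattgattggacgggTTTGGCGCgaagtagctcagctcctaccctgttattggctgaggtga
Mcm6 had 13.67, 13.85, 13.78 and 13.94 on CD70TG arrays and 13.14, 13.12, 13.32 and 13.01 on control arrays, groups that do not overlap, and differed by 0.67 ± 0.10 (adjusted p = 0.000126), or by 0.43 with the index (adjusted p = 0.212). Among regulators of G1, E2f1 rose by 0.52 ± 0.12 (adjusted p = 0.00445) and did not pass with the index (0.55, adjusted p = 0.189). The G1 cyclins Ccnd3 (-0.03) and Ccnd2 (-0.24) did not pass, nor did the inhibitors Cdkn1a (0.37 ± 0.15, adjusted p = 0.0958) and Cdkn1b (0.21 ± 0.15, adjusted p = 0.414).

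Among repair and chromatin genes rises also outnumbered falls, where 9.7% of all features were called higher and 7.57% lower. Of 29 repair and checkpoint genes 14 were called higher and 1 lower, and with the index 4 higher. Blm, a recombination helicase, rose by 0.76 ± 0.10 (adjusted p = 2.74e-05) and Rad54b, a recombination motor, by 1.11 ± 0.17 (adjusted p = 7.17e-05). Both stayed called with the index. Of 34 chromatin genes 11 were called higher and 2 lower, and with the index 2 higher and 1 lower. H2ax, a histone variant that marks DNA breaks and whose transcript rises with replication, had 12.27, 12.49, 12.30 and 12.27 on CD70TG arrays and 10.85, 10.84, 10.41 and 10.63 on control arrays (1.65 ± 0.12, adjusted p = 9.67e-09). Cbx7, a Polycomb reader that favours self-renewal of HSC, fell by 0.71 log2 units (adjusted p = 0.00221).

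Genes that mark long-term HSC were lower in CD70TG arrays. Of 39 measured genes 22 were called lower and 2 higher, against 7.57% lower and 9.7% higher of all features, with a median difference of -0.40. With the index 17 were lower and 0 higher, and without both arrays that stood apart 19 and 1. In CD34+ arrays 23 were lower and 0 higher, with a median of -0.57, where 6.03% of all features were lower and 4.35% higher. The transgene effects of the fractions, tested against each other, differed for 1 of the 39 genes and for 0.218% of all features. Sult1a1, a phenol sulfotransferase enriched in long-term HSC, had 7.43, 7.87, 7.58 and 7.63 on CD70TG arrays and 10.09, 9.45, 9.49 and 10.30 on control arrays. At -2.20 ± 0.16, or 4.61-fold lower, it was the largest called fall of the comparison (adjusted p = 1.11e-08). Tgm2, a transglutaminase, fell to 10.12, 10.19, 10.03 and 9.88 on CD70TG arrays, against 12.33, 11.86, 11.79 and 12.04 on control arrays (-1.95 ± 0.13, adjusted p = 4.99e-09). Vwf, encoding von Willebrand factor and marking HSC biased to platelets, had 8.0, 8.46, 7.76 and 7.96 on CD70TG arrays and 9.75, 9.88, 9.52 and 9.82 on control arrays (-1.70 ± 0.14, adjusted p = 3.11e-08). In all 3 the control arrays lay above every CD70TG array. Other members that were called lower were the membrane protein Pdzk1ip1 (-1.49 ± 0.15), the junction protein Esam (-1.30 ± 0.14) and the CD150 gene Slamf1 (-0.66 ± 0.11). Among the largest falls outside the list were Upp1, a uridine phosphorylase (-2.18 ± 0.18, adjusted p = 3.14e-08), and Wfdc2, a secreted protease inhibitor (-2.03 ± 0.16, adjusted p = 2.18e-08). Both members called higher depended on few arrays or on the index. The efflux pump Abcg2, at 7.86, 5.88, 7.68 and 7.21 on CD70TG arrays, was below background on CD70TG replicate 2 and on all control arrays (5.99, 5.89, 5.91 and 5.86), and was at least 1.68-fold higher by the mean of its CD70TG arrays (adjusted p = 0.0157). It did not pass without CD70TG replicate 1 (adjusted p = 0.0724) or 3 (adjusted p = 0.0647), and with the index its difference was -0.63 (adjusted p = 0.38). Apoe, a lipid carrier that macrophages also make, differed by 0.47 ± 0.15 (adjusted p = 0.0308) with overlapping groups, and did not pass without CD70TG replicate 1 or 2 or without control replicate 3 or 4, with adjusted p = 0.0905 to 0.103. Procr, encoding EPCR, lay near background in both genotypes (-0.03).

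The transcription factors of HSC fell in part. Of 36 measured factors 9 were called lower and 0 higher, against 7.57% lower and 9.7% higher of all features. With the index 4 were lower. Hoxb5, whose expression marks long-term HSC, had 7.10, 7.06, 7.14 and 7.36 on CD70TG arrays and 8.64, 8.33, 8.78 and 8.55 on control arrays (-1.41 ± 0.11, adjusted p = 1.84e-08). Tcf15, a factor linked to quiescent HSC, had 6.52, 6.57, 6.65 and 6.61 on CD70TG arrays and 7.74, 7.79, 7.98 and 7.87 on control arrays (-1.26 ± 0.09, adjusted p = 4.99e-09). Both fell on every CD70TG array, with a spread within groups well under the difference. Nkx2-3, a homeobox factor of the spleen and of HSC, fell by 1.05 log2 units (adjusted p = 6.72e-06), and Mllt3, which sustains self-renewal in human HSC, fell by 1.37 (adjusted p = 5.46e-06). Other factors that define HSC did not pass, among them Gata2 (-0.22 ± 0.10, adjusted p = 0.136), Mecom (-0.04 ± 0.09, adjusted p = 0.808), Hlf (0.21 ± 0.09, adjusted p = 0.114) and Runx1 (0.42 ± 0.18, adjusted p = 0.117).

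Genes of the imprinted network, growth regulators expressed from 1 parental allele that are high in quiescent HSC, included several of the largest falls. Of 18 measured members 7 were called lower and 0 higher, against 7.57% lower and 9.7% higher of all features. With the index 5 were lower. Cdkn1c, encoding the CDK inhibitor p57 that keeps HSC in G0, had 9.74, 10.08, 9.77 and 9.68 on CD70TG arrays and 11.37, 11.30, 11.35 and 11.46 on control arrays. The control arrays lay close together and the difference was -1.55 ± 0.13 (adjusted p = 7.32e-08). Ndn, encoding necdin, a growth suppressor, had 10.18, 10.66, 10.02 and 10.05 on CD70TG arrays and 11.88, 11.66, 11.67 and 11.57 on control arrays (-1.47 ± 0.13, adjusted p = 1.68e-07). Snrpn, a splicing factor of the same imprinted domain, fell by 1.67 log2 units (adjusted p = 7.91e-08), the fetal growth factor Igf2 fell by 1.38 (adjusted p = 1.48e-08) and the receptor adaptor Grb10 fell by 1.18 (adjusted p = 1.81e-06). Igf2r, the scavenger receptor of Igf2, did not pass (0.03 ± 0.11, adjusted p = 0.89), nor did Gnas (-0.05 ± 0.12, adjusted p = 0.843). Mest, Peg3 and Plagl1 lay at or near background.

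Of 18 surface receptors used in gates that separate stem cells from progenitors, 8 were called higher and 1 lower. Of all features 9.7% were higher and 7.57% lower. With the index 2 of these receptors were higher and 1 lower. Fcgr3, encoding CD16, which marks granulocyte-monocyte progenitors, had 6.99, 7.14, 6.99 and 7.18 on CD70TG arrays and 6.43, 6.26, 6.25 and 6.34 on control arrays (0.75 ± 0.09, adjusted p = 4.75e-06). Fcgr2b, whose product CD32 the same antibody binds, rose by 0.91 ± 0.15 (adjusted p = 0.000246), and both held with the index (1.04 and 1.38). Cd48, a SLAM receptor absent from most long-term HSC, had 8.47, 7.43, 8.62 and 8.85 on CD70TG arrays and 6.59, 6.43, 7.11 and 6.54 on control arrays (1.68 ± 0.26, adjusted p = 0.0001). With the index its difference was 0.38 (adjusted p = 0.619). Flt3, against which the fraction was sorted, was called higher (1.94 ± 0.39, adjusted p = 0.00125) with levels of 8.86, 6.73, 9.03 and 8.96 on CD70TG arrays and 6.38, 6.39, 6.86 and 6.20 on control arrays. Its CD70TG replicate 2 lay inside the control range, and with the index the difference was -0.12 (adjusted p = 0.946). Of 39 cytokine receptors 4 were called higher and 3 lower, near the 9.7% and 7.57% of all features. None passed with the index.

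Macrophage genes rose in the CD34- fraction. Of 25 markers of tissue macrophages 18 were called higher and 0 lower in CD34- arrays, with a median difference of 0.75, against 9.7% higher of all features. In CD34+ arrays 3 were called higher and 4 lower, with a median of 0.03, where 4.35% of all features were higher and 6.03% lower. The difference between the transgene effects of the fractions, tested as an interaction, was called for 14 of the 25 markers and for 40 of all features (0.218%). Fcna, a ficolin of macrophages that is not on the list, had the smallest p of all features in the CD34- comparison, with 9.51, 9.89, 9.69 and 9.50 on CD70TG arrays and 8.04, 7.74, 7.79 and 7.87 on control arrays (1.79 ± 0.10, adjusted p = 5.03e-10). In CD34+ arrays it lay below background on every array, at means of 6.26 in CD70TG and 6.14 in control arrays, and the effects of the fractions differed by 1.66 (interaction adjusted p = 1.3e-06). C1qb, a chain of complement C1q, had 9.22, 9.84, 9.46 and 9.42 on CD70TG arrays and 8.09, 7.32, 7.83 and 7.82 on control arrays (1.72 ± 0.14, adjusted p = 3.14e-08), against 0.15 in CD34+ arrays (interaction adjusted p = 0.000252). Its partners C1qc and C1qa rose by 1.05 ± 0.08 and 0.92 ± 0.10. No CD70TG array of these genes overlapped a control array.

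Receptors and transporters of macrophages followed the same pattern. Mrc1, the mannose receptor, had 9.22, 8.92, 9.69 and 9.24 on CD70TG arrays and 7.41, 7.29, 7.52 and 7.44 on control arrays (1.85 ± 0.12, adjusted p = 2.83e-09), against 0.10 in CD34+ arrays. Adgre1, an adhesion receptor that marks macrophages, rose by 1.77 ± 0.13 (adjusted p = 1.11e-08), and Slc40a1, the iron exporter ferroportin, by 1.77 ± 0.15 (adjusted p = 5.72e-08) to 13.01, 13.07, 13.09 and 12.79 on CD70TG arrays, against 11.23, 11.13, 11.40 and 11.12 on control arrays. Vcam1, an adhesion molecule of macrophages and stroma that binds integrins of stem cells, had 11.44, 10.59, 11.37 and 10.43 on CD70TG arrays and 8.33, 8.11, 8.31 and 8.15 on control arrays (2.73 ± 0.23, adjusted p = 7.32e-08), against 0.89 in CD34+ arrays (interaction adjusted p = 0.0116). It was the largest rise among the markers, and every control array lay more than 2 log2 units below every CD70TG array. Axl, a receptor for dying cells, rose by 1.24 ± 0.18 in CD34- arrays and differed by -0.83 in CD34+ arrays (adjusted p = 0.00326, interaction adjusted p = 0.000182), a pair of opposite differences that both passed. Lpl, a lipase of macrophages and fat, not on the list, rose by 2.38 ± 0.22 (adjusted p = 1.72e-07), against -0.43 in CD34+ arrays (interaction adjusted p = 8.34e-05). Cd163, the haptoglobin-hemoglobin receptor, rose by 1.73 ± 0.18 in CD34- arrays and by 0.86 in CD34+ arrays, and for it the fractions did not differ by the test (interaction adjusted p = 0.304). Hmox1, heme oxygenase, rose by 0.74 ± 0.09, the lysosomal protease Lgmn by 0.97 ± 0.10 and cathepsin Ctsb by 0.57 ± 0.09, and all 3 were among the genes called between the fractions. Spic, the factor of red pulp and marrow macrophages, did not pass (-0.14 ± 0.12, adjusted p = 0.466), and Cd5l, Msr1 and Ccr2 had no CD34- array above background.

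The summed linear signal of the macrophage list was 26004 to 33731 on CD70TG arrays and 13355 to 15445 on control arrays. With the index 17 of the 25 markers were called higher, and without both arrays that stood apart 17. The granule programme, set beside it, was raised in both fractions, with 15 of 27 genes called higher in CD34+ arrays, and G2 and M phase genes likewise, with 31 of 38. Of these, Ms4a3 (1.47 in CD34+ arrays, interaction adjusted p = 0.0281) and Lyz2 (0.10, interaction adjusted p = 0.00686) differed between fractions, while Ctsg (3.38), Mpo (2.05) and Kif2c (1.83) did not pass that test. Over all features 1420 were called in both fractions in the same direction. The part of macrophages or of RNA from other cells in these values was not tested.

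**Figure D3:**
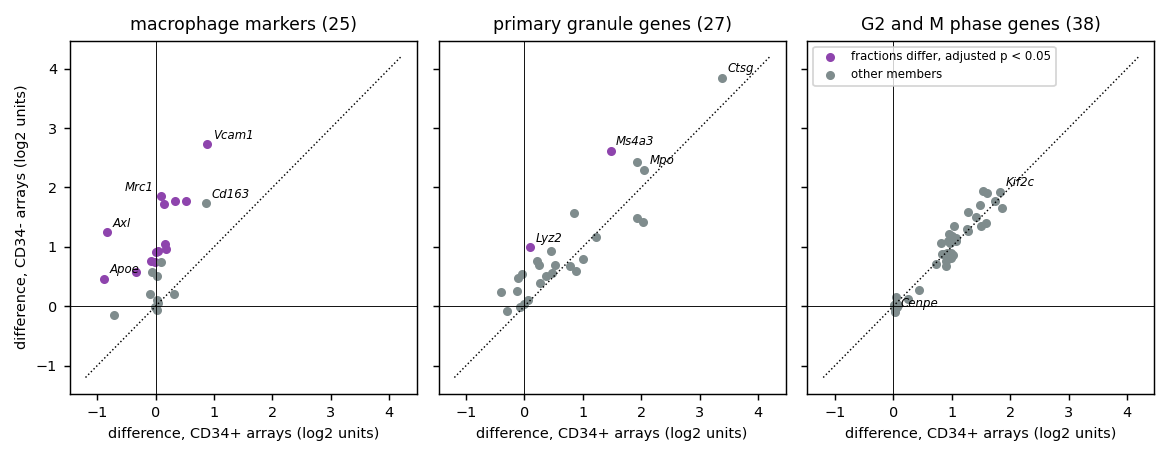
Difference between CD70TG and control arrays in the CD34- fraction (vertical) against that in the CD34+ fraction (horizontal), both in log2 units, for measured members of 3 gene lists, with the line of equal differences dotted. Purple points are genes whose differences differ between fractions at an adjusted p under 0.05. Macrophage markers lie between -0.88 and 0.89 on the horizontal axis and reach 2.73 on the vertical axis, whereas most granule genes and G2 and M phase genes lie along the dotted line.

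A small number of genes outside the macrophage programme fell in CD34- arrays with a different effect in CD34+ arrays. Ehd3, an endosomal ATPase, had 6.52, 6.30, 6.43 and 6.59 on CD70TG arrays and 6.93, 7.11, 7.08 and 7.44 on control arrays (-0.68 ± 0.11, adjusted p = 0.000211), against 0.37 in CD34+ arrays (interaction adjusted p = 0.00176). Evc2, a ciliary protein, was below background on all CD70TG arrays and above it on all control arrays (7.27, 6.74, 7.11 and 6.87), at least 1.55-fold lower (adjusted p = 8.09e-08, interaction adjusted p = 0.0214).

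Cytokine signalling was examined next, since CD70 acts through a receptor. Of 28 STAT and feedback genes 5 were called lower and 3 higher, against 7.57% lower and 9.7% higher of all features. Cish, which blocks STAT5 docking, had 9.15, 10.04, 9.36 and 9.63 on CD70TG arrays and 11.25, 11.09, 11.12 and 10.90 on control arrays (-1.54 ± 0.17, adjusted p = 1.97e-06). CD70TG replicate 2 was the highest of its group, still below all control arrays. Socs2, another STAT5 target, had 8.16, 8.09, 8.31 and 8.17 on CD70TG arrays and 9.66, 9.10, 9.37 and 9.73 on control arrays (-1.28 ± 0.17, adjusted p = 1.65e-05), and both were called with the index. The kinase Jak2 fell by 0.52 log2 units (adjusted p = 0.00663) with overlapping groups, and its difference with the index was -0.48 (adjusted p = 0.331).

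Of 32 genes of the NF-kB pathway and TNF receptors 7 were called lower and 3 higher. Of all features 7.57% were lower and 9.7% higher. With the index 2 genes of the list were lower and 1 higher. Traf1, an adaptor that NF-kB induces, had 6.45, 6.67, 6.36 and 6.65 on CD70TG arrays and 7.38, 7.51, 7.46 and 7.49 on control arrays (-0.93 ± 0.08, adjusted p = 1.68e-07). Ltb, encoding lymphotoxin beta, fell by 0.82 log2 units (adjusted p = 2.86e-05) and the kinase Map3k14 (NIK), which starts the noncanonical branch, fell by 0.69 (adjusted p = 0.000521). Siva1, a death domain protein that binds the tail of CD27, rose by 0.45 ± 0.10 (adjusted p = 0.00388). Of these, Traf1, Ltb and Siva1 stayed called with the index, and Map3k14 did not (-0.21, adjusted p = 0.705).

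Interferon targets were read beside the 7.57% lower and 9.7% higher of all features. Of 31 type I interferon targets 7 were called lower and 3 higher, and of 35 targets of interferon gamma and antigen presentation genes 5 were lower and 2 higher. Mx2, an antiviral GTPase, had 7.24, 7.53, 7.25 and 7.54 on CD70TG arrays and 8.25, 8.06, 8.18 and 8.61 on control arrays (-0.89 ± 0.12, adjusted p = 2.42e-05). The guanylate-binding protein Gbp2 fell by 0.77 log2 units (adjusted p = 5.05e-05) on its brightest probe, while another probe of Gbp2 was called in the opposite direction. Irgm1 (-0.04 ± 0.08, adjusted p = 0.791) and B2m (-0.15 ± 0.11, adjusted p = 0.385) did not pass. No type I target passed with the index, although the median difference of the list was -0.19 without it and -0.22 with it. Of the interferon gamma list 2 were lower and 1 higher with the index. Of 29 immediate early genes 5 were called lower and 2 higher, none with the index, and the median difference was -0.09 without it and 0.02 with it. Among them were Dusp2, a MAP kinase phosphatase (-0.69 ± 0.15, adjusted p = 0.00319), and Ppp1r15a, which ends the integrated stress response (-1.11 ± 0.22, adjusted p = 0.00133).

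Chemokines moved in both directions. Of 29 chemokines and receptors 5 were called higher and 4 lower, against 9.7% higher and 7.57% lower of all features. Ccl9, made by myeloid cells, had 11.72, 11.58, 11.37 and 11.58 on CD70TG arrays and 10.43, 10.20, 10.41 and 10.40 on control arrays (1.2 ± 0.14, adjusted p = 2.68e-06). Ccl3 fell by 0.79 log2 units (adjusted p = 0.00133) and Ccl5 fell by 1.05 (adjusted p = 0.00778), and both are made by activated lymphocytes and macrophages. Cxcr4, the receptor that holds HSC in the niche, rose by 0.64 ± 0.13 (adjusted p = 0.00123), and its ligand Cxcl12 did not pass (0.16 ± 0.08, adjusted p = 0.226). Of these genes Ccl9 alone was called with the index, where Ccl5 differed by 0.06. Among survival genes Bcl2, an inhibitor of apoptosis, rose by 1.18 ± 0.16 (adjusted p = 1.91e-05), with 0.78 with the index (adjusted p = 0.0862).

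Transcripts of the B lineage were lower in CD70TG arrays. Of 15 B and plasma cell markers 11 were called lower and 0 higher, against 7.57% lower of all features, and 9 were lower without both arrays that stood apart. The median difference was -0.52. With the index 1 was called, with a median of -0.17. Vpreb3, a chaperone of the pre-B cell receptor, had 6.94, 7.65, 7.33 and 7.07 on CD70TG arrays and 8.13, 8.44, 8.80 and 8.58 on control arrays (-1.24 ± 0.30, adjusted p = 0.00646), and 0.00 with the index. All CD70TG arrays lay below the control arrays. The B cell coactivator Pou2af1 fell by 0.67 log2 units (adjusted p = 0.00671), and its difference with the index was -0.55 (adjusted p = 0.397). Summed linear signal of the list was 2179 to 2700 on CD70TG arrays and 3555 to 3944 on control arrays, low in both genotypes. Of 22 lymphoid priming genes 5 were called lower and 2 higher, against 7.57% lower and 9.7% higher of all features. Il7r did not pass (-0.49 ± 0.25, adjusted p = 0.196), nor did Ikzf1 (0.03 ± 0.12, adjusted p = 0.888), a factor of lymphoid priming.

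Platelet and erythroid genes were called in both directions, where 7.57% of all features were called lower and 9.7% higher. Of 24 megakaryocyte and platelet genes 6 were called lower and 3 higher. Clu, a chaperone stored in platelet granules, had 6.43, 6.82, 6.56 and 6.53 on CD70TG arrays and 7.73, 7.70, 7.33 and 7.57 on control arrays (-1.0 ± 0.12, adjusted p = 6.83e-06), and Zfpm1, the GATA cofactor FOG1, fell by 0.80 log2 units (adjusted p = 7.37e-05) but did not pass with the index (-0.26, adjusted p = 0.467). Pf4, a platelet chemokine, did not pass (0.37 ± 0.16, adjusted p = 0.135). Of 25 erythroid genes 4 were lower and 2 higher. Car2, carbonic anhydrase 2, fell by 0.76 log2 units on its brightest probe (adjusted p = 6.42e-05), and another probe of Car2 was called in the opposite direction, while the brightest did not pass with the index (-0.54). Hba-a1, alpha globin, varied among arrays, with 10.86, 13.47, 11.95 and 12.62 on CD70TG arrays and 12.66, 12.88, 12.34 and 13.32 on control arrays, and did not pass (-0.57 ± 0.61, adjusted p = 0.594), although with the index it was called higher (2.57, adjusted p = 0.0138).

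**Figure D4:**
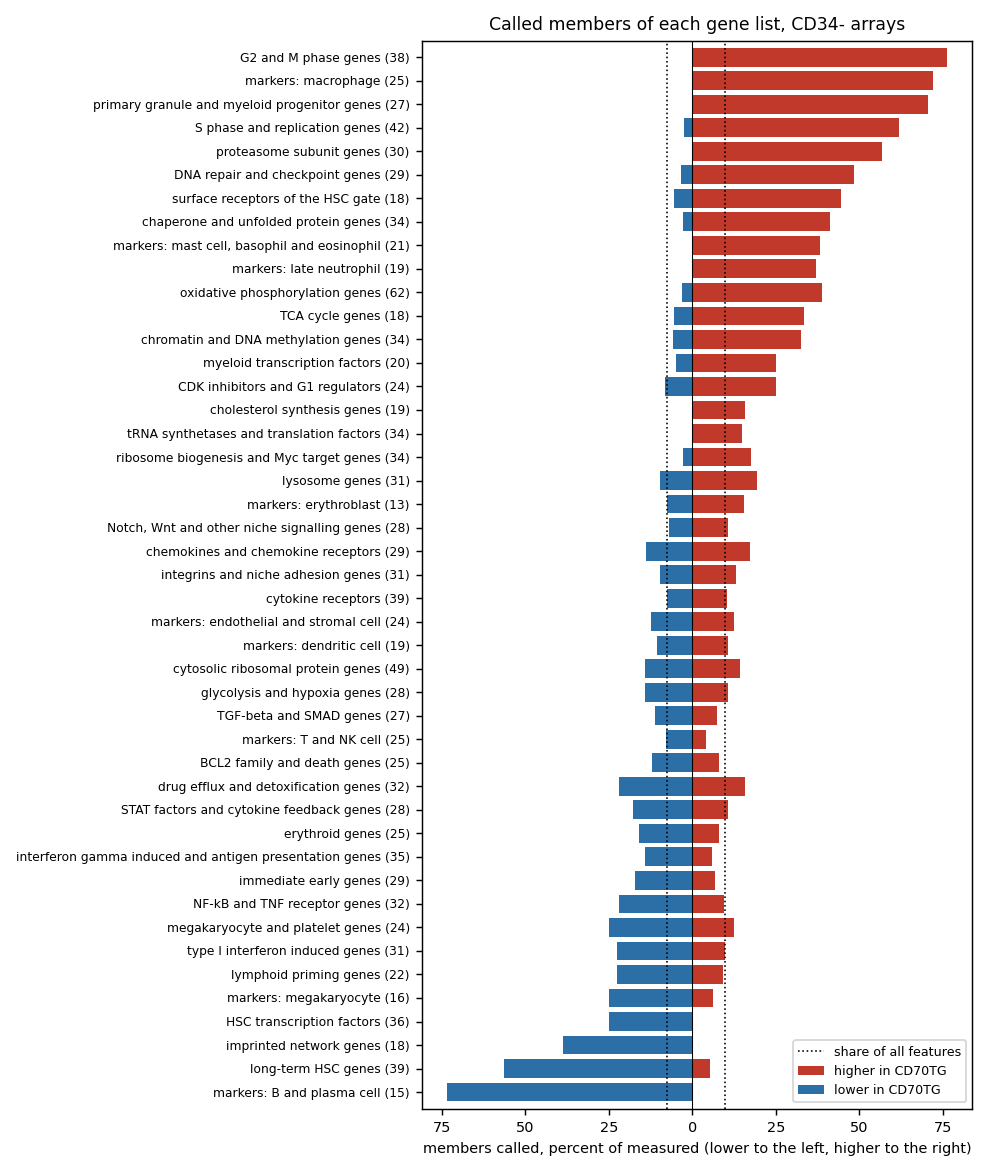
Share of the measured members of each gene list that was called higher (red, right) or lower (blue, left) in CD70TG than in control CD34- arrays, in percent, with the number of measured members in brackets. Dotted lines mark the shares of all features, 9.7% higher and 7.57% lower. G2 and M phase genes, macrophage markers and granule genes stand highest, and B and plasma cell markers and long-term HSC genes lowest.

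Proteasome, oxidative phosphorylation and chaperone genes were also called higher more often than lower. Most of these calls did not pass with the index, while the median differences of these lists stayed near their size. Without the index 9.7% of all features were called higher and 7.57% lower. With the index 1.83% of all features were called higher. Of 30 proteasome genes 17 were called higher, with a median difference of 0.36, and 1 was higher with the index, with a median of 0.30. Of 62 oxidative phosphorylation genes 24 were higher and 2 lower, with a median of 0.24, and with the index 3 were higher, with a median of 0.24. Of 34 chaperone genes 14 were higher and 1 lower, with a median of 0.26, and with the index 0 were higher, with a median of 0.20. Adding the index took the median of TCA cycle genes from 0.17 to 0.01. For tRNA synthetases and translation factors it went from 0.11 to 0.06. For cytosolic ribosomal protein genes it went from -0.04 to 0.09, and for ribosome biogenesis genes from 0.08 to 0.26. Single genes among the largest rises changed more with the index than these medians. Hsp90aa1, the stress-induced HSP90, had 12.32, 10.38, 11.75 and 11.54 on CD70TG arrays and 8.09, 8.35, 9.74 and 8.12 on control arrays (2.92 ± 0.46, adjusted p = 0.000122). Its order over the 8 arrays nearly followed that of the index, and with the index the difference was 0.17 (adjusted p = 0.856). Pcna, the sliding clamp of replication and a member of the S phase list, had 10.01, 8.66, 10.02 and 9.99 on CD70TG arrays and 7.16, 7.22, 8.20 and 7.40 on control arrays (2.18 ± 0.34, adjusted p = 0.000119), and 0.17 with the index (adjusted p = 0.83). The proteasome subunit Psmd6 (1.75 ± 0.24, adjusted p = 3.41e-05) and the complex I subunit Ndufb5 (1.40 ± 0.23, adjusted p = 0.00017) were likewise lowest among CD70TG arrays on replicate 2 and highest among control arrays on replicate 3, with 0.48 and 0.22 with the index. Nono, a nuclear RNA-binding protein, had the second largest called rise without overlap, after Ctsg (3.14 ± 0.54, adjusted p = 0.000341) and -0.12 with the index (adjusted p = 0.932). Eef1a1, the translation elongation factor, had 12.04, 6.82, 12.36 and 11.46 on CD70TG arrays and 6.59, 6.19, 7.21 and 6.42 on control arrays. CD70TG replicate 2 lay inside the control range, so that the largest difference of all called features (4.07 ± 0.99, adjusted p = 0.00599) rested on 3 arrays, and with the index it was -1.58 (adjusted p = 0.324). None of these 6 genes was called with the index.

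**Figure D5:**
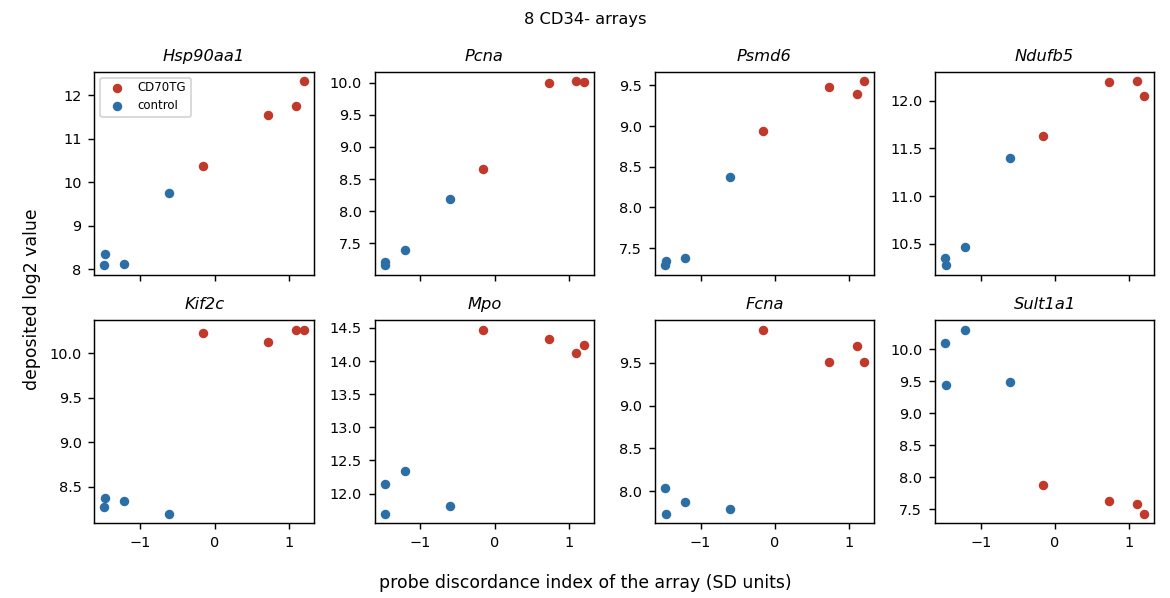
Levels of 8 genes (deposited log2 value) on the 8 CD34- arrays against the probe discordance index of the array (SD units), CD70TG in red and control in blue. For none of the 8 genes do the genotypes overlap. Hsp90aa1, Pcna, Psmd6 and Ndufb5 are lowest among CD70TG arrays on replicate 2 and highest among control arrays on replicate 3. On the index these are the arrays of each genotype nearest to the other genotype. Kif2c, Mpo, Fcna and Sult1a1 do not show this order.

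Other metabolic and signalling lists are given by their counts, beside 9.7% of all features called higher and 7.57% lower. Of 49 cytosolic ribosomal protein genes 7 were called higher and 7 lower, and of 28 glycolysis and hypoxia genes 3 were higher and 4 lower. Gapdh differed by 0.13 ± 0.09 (adjusted p = 0.411). Aldoc, an aldolase isoform, fell by 1.01 log2 units (adjusted p = 0.000225), and Pdk4, a kinase that shuts pyruvate out of the mitochondria and is high in quiescent HSC, had 6.23, 6.13, 6.38 and 6.41 on CD70TG arrays and 6.77, 6.71, 7.19 and 6.90 on control arrays (-0.60 ± 0.09, adjusted p = 0.000129). Of 32 efflux and detoxification genes 7 were lower and 5 higher, with the glutathione transferases Gstm2 (-0.72 ± 0.12, adjusted p = 0.000165), Gsta4 (-0.70 ± 0.12, adjusted p = 0.000349) and Gstt1 (-0.56 ± 0.08, adjusted p = 6.67e-05) among the falls. None of these 3 transferases passed with the index. In the TGF-beta list 2 of 27 genes were higher and 3 lower, in the Notch and Wnt list 3 of 28 were higher and 2 lower, and among T and NK cell markers 1 of 25 was higher and 2 lower.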

How the data were processed

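RNA of 16 samples was amplified, labelled with biotin and read on Illumina bead arrays, per the labels' protocols. The values used are those the authors deposited in the series matrix, treated as log2 because they run from 5.498 to 16.489. No source used here states the log base, the background correction or the normalization, and folds hold only if the base is 2. A second deposited table has 32 columns of signals and detection p-values that match no sample label and was not used.

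Probes were named through the platform annotation, with 23978 of 25697 probes carrying 1 symbol, none several and 1719 none. The brightest probe stood for a gene. Of 1606 other probes of called genes 1137 differed in the same direction as the brightest probe, and 24 were called in the opposite direction. Groups and replicate numbers were taken from the labels. The limma package (version 3.58.1, R 4.3.3) fitted 4 group means with a mean-variance trend, and p-values were adjusted over all 18312 features. The interaction contrast is the CD34- difference minus the CD34+ difference. A probe was above background on an array where it exceeded the mode of the array by 1.64 SD of the values below the mode, which replaced the planned filter on detection p-values. The fit was tested on simulated data. Alternatives were a background filter, single probes, the 8 arrays alone, a replicate block, array weights, quantile and median scaling, a minimum fold, the probe discordance index as a covariate, no trend and arrays left out. No 2 arrays held identical values for more than 0.288% of probes.

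The members and gene lists were chosen with earlier results of these data known. The genes named are part of those chosen by size of change (the 20 largest rises and falls), by rank of p or of level within each list, by membership of the stem cell gate list or by size of the interaction. Outside this rule, and chosen after their values or promoter matches were seen, are Aurka, C1qa, Ccnb2, Ccr2, Cd163, Cd5l, Cdc20, Cdk1, Cdkn1a, Cdkn1b, Cebpa, Hlf, Hmmr, Kif11, Kif22, Mcm6, Mecom, Mest, Mllt3, Msr1, Peg3, Plagl1, Plk1, Prtn3, Runx1, Spi1 and Top2a. Promoter sequences are those of RefSeq (GRCm38.p6), matched by symbol.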

Additional observations from a re-analysis of the deposited data

Results flagged for a closer look

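In 18 of the 156 genes named here the difference between CD70TG and control arrays was not the same in the fractions, by the adjusted p of the interaction. The values below are the CD34- difference minus the CD34+ difference, in log2 units. Most of these genes are macrophage genes whose CD34- difference was the higher one. They are Lpl (2.81), Axl (2.07), Vcam1 (1.84), Mrc1 (1.76), Fcna (1.66), C1qb (1.58), Slc40a1 (1.43), Apoe (1.35), Adgre1 (1.25), C1qa (0.91), Ctsb (0.90), C1qc (0.89), Lgmn (0.79) and Hmox1 (0.74). Among myeloid progenitor genes Ms4a3 (1.15) and Lyz2 (0.90) differed in the same direction. Ehd3 (-1.05) and Evc2 (-0.67) had the lower CD34- difference.

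In 20 of 312 groups of 4 arrays 1 array lay far from the other 3, by Dixon's test of the gap over the range. Chance alone gives about 1 in 20 such groups. On CD70TG replicate 2 the level was low for Eef1a1 (6.82, against 11.46 to 12.36 on the other CD70TG arrays), Flt3 (6.73, against 8.86 to 9.03), Pcna (8.66, against 9.99 to 10.02), Myb (8.67, against 10.44 to 10.62) and Ccnd3 (12.12, against 12.47 to 12.52), and high for H2ax (12.49, against 12.27 to 12.30). On control replicate 3 the level was high for Hsp90aa1 (9.74, against 8.09 to 8.35 on the other control arrays), Nono (10.11, against 8.01 to 8.16), Psmd6 (8.37, against 7.29 to 7.38) and Myb (8.87, against 7.30 to 7.54), and low for Car2 (8.70, against 9.03 to 9.08) and Gstt1 (7.04, against 7.21 to 7.23). These are the arrays that stood apart on the probe discordance index.

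The remaining arrays that lay apart were spread over both genotypes. Jak2 was high on CD70TG replicate 1 (9.38, against 8.95 to 8.97), Gstt1 was low on the same array (6.4, against 6.66 to 6.71), Dusp2 was high on CD70TG replicate 4 (10.48, against 10.06 to 10.10) and Il7r was low there (8.82, against 9.21 to 9.27). On control replicate 2 Cd27 (12.54, against 12.94 to 12.96), Ccl9 (10.20, against 10.40 to 10.43) and Gbp2 (11.52, against 11.77 to 11.83) were low. Rrm2 was high on control replicate 4 (8.97, against 8.09 to 8.18).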

How the results depend on the processing

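The count of 3163 features called in CD34- arrays was 994 with a minimum fold of 1.2, 560 with the probe discordance index and 284 with the replicate block and the index together. It was 2366 to 3359 with 1 array left out. The 1900 features called in CD34+ arrays were 490 with the minimum fold, 905 with the index and 581 with block and index. The 402 list members called became 195, 145 and 87 under these 3 settings. The 40 interaction calls were 20 with the minimum fold, 139 without both arrays that stood apart and 33 to 57 with 1 array left out. The index difference between genotypes of 1.912 was 1.75 to 2.204 with 1 array left out and 2.4 without both arrays that stood apart, where 0.0571 and 0.1 are the smallest exact p that these designs allow. Of the 116 named genes called, 82 kept their call and direction with the index, 26 kept the direction alone and 8 turned direction. With the index the differences of opposite sign, Hba-a1 among them although not called before, were -0.63 for Abcg2, 0.056 for Ccl5, 0.10 for Chaf1b, -1.58 for Eef1a1, -0.12 for Flt3, 2.57 for Hba-a1, -0.41 for Myb, -0.12 for Nono and 0.0032 for Vpreb3. With block and index they were -0.36 for Abcg2, 0.050 for Chaf1b, -0.50 for Eef1a1, 3.37 for Hba-a1, -0.024 for Hsp90aa1, -0.10 for Myb, 0.013 for Nfe2, -0.29 for Nono and 0.39 for Ppp1r15a. The cause was not tested. No named call turned direction under array weights, quantile normalization, equal medians or any array left out. The background filter, the fit of each probe, the 8 arrays alone and the fit without trend could not turn a direction. They keep the difference of the brightest probe as it is. Other probes of Car2 (1.83) and Gbp2 (1.25) were called in the direction opposite to the brightest. The block with the index and the fit without both arrays were chosen after seeing the data. The deviations of same-numbered arrays correlated at -0.113, 0.122, 0.199 and 0.223, and those of other pairs at -0.262 to 0.256. These few values do not settle whether replicate numbers pair the samples. With the replicate block alone 3239 features were called. Signal over background limits genes near the lower end of the scale, whose differences are compressed.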

Other observations

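Further gene lists are given by their counts, beside 9.7% of all features called higher and 7.57% called lower. Of 34 ribosome biogenesis and Myc target genes 6 were called higher in CD70TG arrays and 1 lower. Of 34 tRNA synthetase and translation factor genes 5 were higher and 0 lower. Of 19 cholesterol synthesis genes 3 were higher and 0 lower, and of 18 TCA cycle genes 6 were higher and 1 lower. Of 31 lysosome genes, which macrophages express at high level, 6 were higher and 3 lower. Of 31 integrin and niche adhesion genes 4 were higher and 3 lower, and of 25 genes of the BCL2 family and cell death 2 were higher and 3 lower. Among markers of other cell types, dendritic cells had 2 of 19 higher and 2 lower, erythroblasts 2 of 13 higher and 1 lower, megakaryocytes 1 of 16 higher and 4 lower, and endothelial and stromal cells 3 of 24 higher and 3 lower. None of the TCA cycle genes passed with the index. Of 5 measured sex-linked transcripts 1 was called higher and 0 lower, and with the index 0 were called. The sex of the mice in the pools was not tested.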
